A study of Homo sapiens with 6 samples.

Results

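Axon guidance ligands and receptors were followed across the 6 arrays of a knockdown study of ovarian cancer cell lines. They were chosen by gene symbol, as the probes annotated to semaphorins (SEMA), plexins (PLXN), neuropilins (NRP1 and NRP2), Eph receptors (EPHA and EPHB), ephrins (EFNA and EFNB), netrins (NTN), UNC5 receptors, SLIT1 to SLIT3 and ROBO1 to ROBO4. This gave 66 genes with 1 probe each, 34 ligands and 32 receptors in 12 groups, of 21448 transcript probes in all. RMG1, a cell line established from clear cell carcinoma of the ovary, received siControl or 1 of the siRNAs siCPNE8 #A and siCPNE8 #B. OVCAR3, a cell line taken to represent high-grade serous carcinoma, received siControl or 1 of siBHLHE41 #A and siBHLHE41 #B. CPNE8 encodes a calcium-dependent phospholipid-binding protein and BHLHE41 a transcriptional repressor of the circadian clock. Total RNA of each of these 6 transfections was hybridized to 1 Affymetrix Clariom S array. Each histotype was represented by 1 line, and #A and #B are siRNAs of different sequence against the same gene, so the comparisons below are of lines and of siRNAs. The lines were kept in different media, which cannot be told apart from the difference of line, and the labels and the methods of the study assign the media the opposite way round.

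In the developing nervous system these proteins steer growing axons. Semaphorins are secreted or membrane-bound cues that signal through plexins, and the secreted class 3 semaphorins mostly bind a neuropilin that acts as a co-receptor. Ephrins are tethered to the cell surface, by a lipid anchor in the A class and by a transmembrane segment in the B class, and bind Eph receptor tyrosine kinases on neighbouring cells. Netrins signal through DCC, NEO1 and UNC5 receptors, and Slit proteins through Robo receptors. Epithelial and carcinoma cells use the same families in adhesion, migration and vessel growth.

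The deposited log2 values came from RMA, in which the background is corrected, the arrays are normalized to each other and the features of a gene are summarized into 1 value. A probe was called above background in an array when it was brighter than 95% of that array's negative controls, a limit between log2 7.86 and 8.47. Between 37.2% and 41.2% of the transcript probes were above it. The highest values of the arrays, 17.73 to 18.35, exceed 16, the log2 of a 16-bit scanner scale, so a rescaling that is not described in the sources used here may stretch or shrink the log2 differences. In RMG1 the log2 value of CPNE8 was 13.76 in the control array and 10.67 (#A) and 11.92 (#B) after its knockdown. In OVCAR3 that of BHLHE41 was 14.51 in the control array and 12.99 (#A) and 13.63 (#B) after its knockdown. Of 8 epithelial markers, 7 were above background in all 3 RMG1 arrays and 8 in all 3 OVCAR3 arrays, and the histotype markers separated the lines in part. Of 6 clear cell markers, 3 (RBP4, SPP1 and ANXA4) were called higher in RMG1, GPX3 was above background in both lines without a call, and NAPSA and PIGR were below it throughout. Of 8 serous markers, 4 (WT1, KLK6, MUC16 and MSLN, the last below background) were called higher in OVCAR3 and PAX8 was called higher in RMG1, while ESR1, SOX17 and FOLR1 were below background throughout. All 8 endothelial and 7 immune markers measured were below background in every array, as were 6 of 7 fibroblast markers (COL1A2 was above it throughout) and 5 of 7 neuron markers (MAP2 was above it throughout and RBFOX3 in OVCAR3).

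Of the 66 guidance genes, 26 were above background in at least 1 array, 18 of them in RMG1 and 23 in OVCAR3, and 40 were not. The 26 comprised 14 of the 34 ligands and 12 of the 32 receptors, or 39.4% of the genes compared with 46.7% of all transcript probes. The 40 others read between 2.96 and 7.90 and included 8 of 13 membrane semaphorins, 5 of 9 plexins, 6 of 9 EphA receptors, 3 of 4 UNC5 receptors and 3 of 4 Robo receptors. No fold is given for them, since a level below background has no reliable size. Of the 66 genes, 12 were above background in all 6 arrays.

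**Figure D1:**
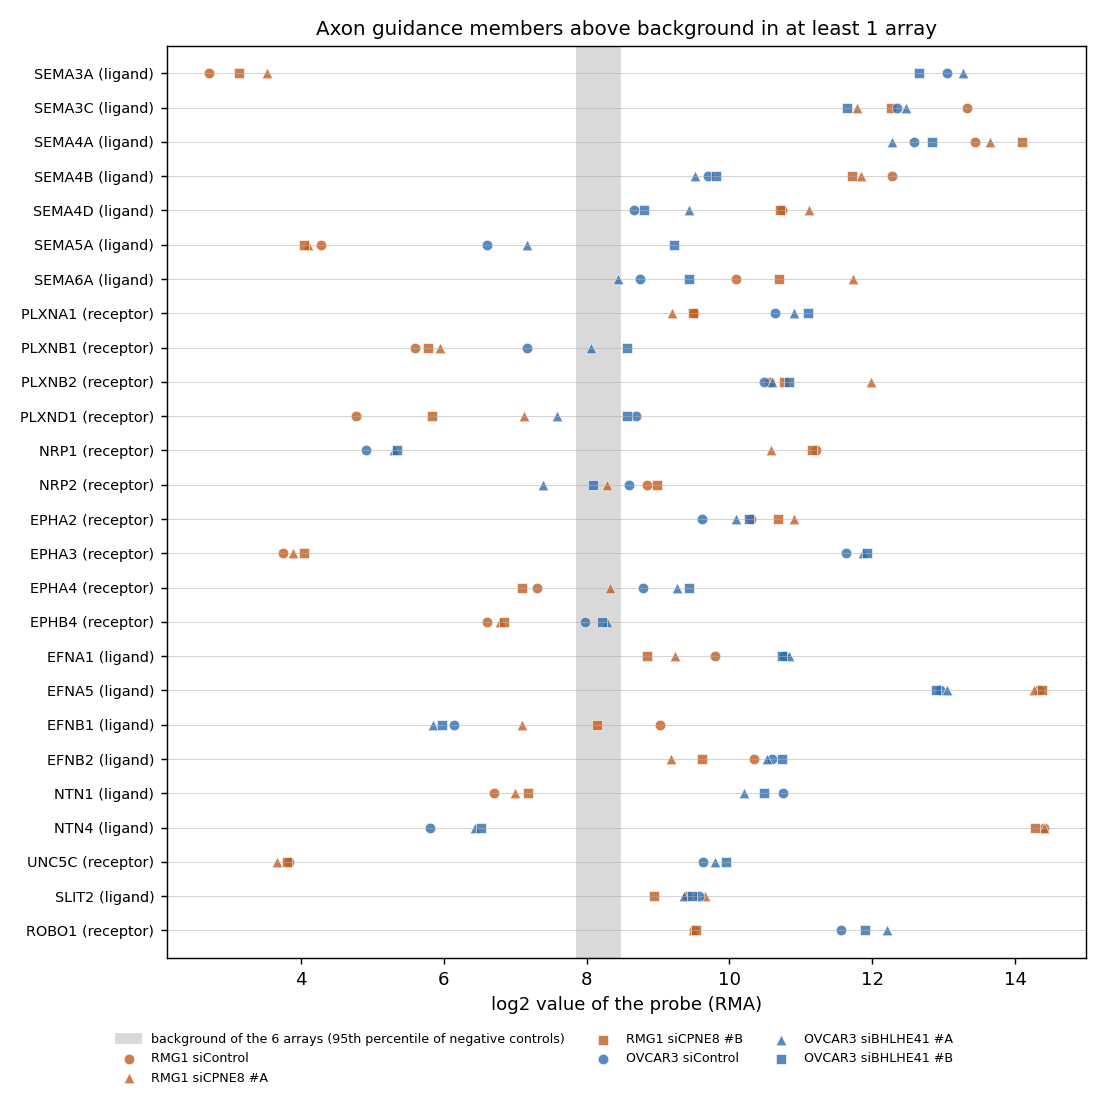
Log2 values of the 26 guidance genes above background in at least 1 array (x axis), 1 gene per line, with circles for siControl, triangles for siRNA #A and squares for siRNA #B, RMG1 in orange and OVCAR3 in blue, and the range of the background over the 6 arrays in grey. SEMA3A, EPHA3, UNC5C and NTN1 lie right of the grey band in OVCAR3 alone, and NTN4 and NRP1 in RMG1 alone.

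The lines differed in which guidance genes they expressed. RMG1 and OVCAR3 were compared with 3 arrays each, whatever the siRNA, by limma, with p-values adjusted after Benjamini and Hochberg across the 21448 transcript probes, and a gene was called at an adjusted p under 0.05. Each combination of line and siRNA had 1 array, and whether the transfections came from independent cultures is not stated. These p-values therefore measure only the spread between the samples, which here includes the differences between siRNAs. Of the 66 genes, 35 (53%) were called, compared with 37% of all transcript probes. Higher in OVCAR3 were 24 (36.4%), where the share over all probes was 19.2%, and higher in RMG1 were 11 (16.7%), where it was 17.8%. The 3 arrays of a line did not overlap with those of the other line for 42 genes (63.6%), compared with 48.4% of all probes. The median difference of the 66 genes, RMG1 minus OVCAR3, was -0.21 on the log2 scale and that of all transcript probes 0.03. Of the 24 genes higher in OVCAR3, 11 were below background in every array, as were 3 of the 11 higher in RMG1. When the fit kept only probes above background in all 3 arrays of at least 1 line, 9 were higher in OVCAR3 and 8 in RMG1. EFNB1, called over all probes, was left out of that fit, so these 8 include a gene not called over all probes. Above background in all 3 OVCAR3 arrays and no RMG1 array were SEMA3A, EPHA3, UNC5C and NTN1, 6.06% of the 66 genes and 2.18% of all probes, and NTN4 and NRP1 had the converse pattern (3.03% and 2.86%).

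Of the secreted semaphorins, SEMA3A was above background in OVCAR3 alone and SEMA3C in both lines. SEMA3A, which repels axons and collapses growth cones, read 13.05, 13.27 and 12.66 in OVCAR3 with siControl, #A and #B. In RMG1 it read 2.71, 3.53 and 3.14, below background in every array. For genes of this kind the smaller level is only a bound, and the fold was taken between the mean of the line that expressed the gene and, in the other line, the mean of the background of each array or of the probe where that was higher. By this measure SEMA3A was at least 33.8-fold higher in OVCAR3 (adjusted p = 3.34e-08 from limma). The adjusted p printed beside such a bound, here and below, tests the difference of the values as read, not the bound. SEMA3C, another class 3 semaphorin, was above background in all arrays, with 13.32, 11.78 and 12.26 in RMG1 and 12.35, 12.47 and 11.65 in OVCAR3, and the lines overlapped. Its difference was 0.30 on the log2 scale with a 95% interval from -0.56 to 1.16 (adjusted p = 0.594 from limma). SEMA3D, SEMA3E, SEMA3F and SEMA3G were below background in every array.

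Of the neuropilins, the co-receptors of class 3 semaphorins, NRP1 was above background in RMG1 alone and NRP2 in both lines. NRP1 read 11.21, 10.58 and 11.16 in the RMG1 arrays with siControl, #A and #B, and 4.91, 5.31 and 5.35 in those of OVCAR3. It was at least 6.86-fold higher in RMG1 (adjusted p = 2.46e-07 from limma), so SEMA3A and NRP1 were each above background in a different line. NRP2 lay near background in both lines, with 8.84, 8.29 and 8.98 in RMG1 and 8.60, 7.39 and 8.09 in OVCAR3, where 2 of 3 arrays were above it. The difference of NRP2 was 0.68 with an interval from -0.03 to 1.39 (adjusted p = 0.126 from limma).

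Of the plexins, the signal-transducing receptors of semaphorins, PLXNA1 and PLXNB2 were above background in all 6 arrays. PLXNA1, a partner of neuropilins, read 9.50, 9.19 and 9.49 in RMG1 and 10.64, 10.91 and 11.10 in OVCAR3, without overlap. It was lower in RMG1 by 2.81-fold, a log2 difference of -1.49 with a standard error of 0.19 (adjusted p = 0.000237 from limma). PLXNB2 had a log2 difference of 0.46 with an interval from -0.30 to 1.23, and its lines overlapped (adjusted p = 0.334). PLXND1 and PLXNB1 were above background in OVCAR3 alone, PLXND1 in 2 of 3 arrays and PLXNB1 in 1, and both were called higher in OVCAR3 (adjusted p = 0.00672 and 0.000639 from limma). PLXNA2, PLXNA3, PLXNA4, PLXNB3 and PLXNC1 were below background in every array.

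Of the 13 membrane-bound semaphorins, 5 were called higher in RMG1 and 4 in OVCAR3 (38.5% and 30.8%, with 17.8% and 19.2% over all probes). Those above background in RMG1, SEMA4A, SEMA4B, SEMA4D and SEMA6A, were all higher in this line. SEMA4B read 12.27, 11.84 and 11.71 in RMG1 and 9.70, 9.52 and 9.81 in OVCAR3, a 4.80-fold difference (log2 2.26, standard error 0.20, adjusted p = 2.47e-05 from limma). SEMA4D, a ligand of PLXNB1, read 10.73, 11.11 and 10.71 against 8.67, 9.44 and 8.80 and was 3.68-fold higher (adjusted p = 0.000235 from limma). SEMA4A, known for its part in immune cells and retina, read 13.44, 13.65 and 14.09 against 12.59, 12.27 and 12.84 and was 2.23-fold higher (adjusted p = 0.00315). These groups of arrays did not overlap for SEMA4A, SEMA4B or SEMA4D. SEMA6A, a transmembrane ligand of class A plexins, read 10.09, 11.73 and 10.69 in RMG1 and 8.75, 8.44 and 9.44 in OVCAR3, where the #A array was below background (3.89-fold, standard error 0.41 on the log2 scale, adjusted p = 0.00432). SEMA5A was below background in RMG1 and above it in 1 OVCAR3 array, and was called higher in OVCAR3 (adjusted p = 0.000938).

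The netrins NTN4 and NTN1 were above background in different lines. NTN4, a netrin of basement membranes that binds laminin, read 14.40, 14.40 and 14.28 in RMG1 and 5.81, 6.44 and 6.52 in OVCAR3, at least 71.0-fold higher in RMG1 (adjusted p = 3.97e-08 from limma). NTN1, the classical attractant of commissural axons, was above background in OVCAR3 alone, with 10.75, 10.20 and 10.48 against 6.70, 7.0 and 7.18 in RMG1. It was at least 5.91-fold higher in OVCAR3 (adjusted p = 2.25e-06). UNC5C, which mediates repulsion by NTN1, read 9.63, 9.80 and 9.95 in OVCAR3 and 3.84, 3.67 and 3.80 in RMG1, at least 3.68-fold higher in OVCAR3 (adjusted p = 4.28e-08). The ligand NTN1 and the receptor UNC5C were thus above background in the same line. NTN3, NTN5, UNC5A, UNC5B and UNC5D were below background in every array.

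The ephrin receptor EPHA3 had the same distribution as UNC5C. EPHA3 read 11.63, 11.87 and 11.92 in OVCAR3 and 3.75, 3.89 and 4.04 in RMG1, at least 14.9-fold higher in OVCAR3 (adjusted p = 1.54e-08 from limma). EFNA5, a ligand that EPHA3 binds, was above background in every array and higher in RMG1, with 14.34, 14.27 and 14.38 against 12.95, 13.04 and 12.89 (2.59-fold, standard error 0.15 on the log2 scale, adjusted p = 0.00012). EFNA1, the main ligand of EPHA2, was lower in RMG1 with 9.80, 9.24 and 8.84 against 10.76, 10.83 and 10.74 (2.80-fold, standard error 0.24, adjusted p = 0.00104). EPHA2, often abundant in carcinoma cells, read 10.30, 10.90 and 10.68 in RMG1 and 9.61, 10.09 and 10.28 in OVCAR3. The 3 RMG1 values of EPHA2 lay above those of OVCAR3, but the difference of 0.64 (interval 0.11 to 1.16) did not pass the test adjusted over all transcript probes (adjusted p = 0.0594 from limma). EPHA4, which binds ephrins of both classes, was above background in all OVCAR3 arrays (8.79, 9.26 and 9.43) and in the siCPNE8 #A array of RMG1 (7.30, 8.33 and 7.1), and was called higher in OVCAR3 (adjusted p = 0.00393), with no fold given since 2 RMG1 values were below background.

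Of the B class ephrins, EFNB2 was above background in both lines and EFNB1 in RMG1. EFNB2, a ligand of EPHB4 and an arterial marker in vessels, read 10.35, 9.18 and 9.61 in RMG1 and 10.60, 10.53 and 10.73 in OVCAR3, a log2 difference of -0.90 with a standard error of 0.28 (adjusted p = 0.029 from limma). This call was lost when any 1 array other than RMG1 siControl was left out, with adjusted p between 0.0606 and 0.0867 and differences between -0.95 and -0.64. The siControl values of EFNB2, 10.35 and 10.60, lay closer together than the means of 3 arrays, 9.71 in RMG1 and 10.62 in OVCAR3. The difference thus includes the lower values with both siCPNE8 siRNAs, and without the RMG1 siControl array it was -1.22. EFNB1, an X-linked ephrin required in skull development, was above background in RMG1 with siControl (9.03) and #B (8.14) but not with #A (7.09), and in 0 OVCAR3 arrays (6.15, 5.85 and 5.97); it was called higher in RMG1 (adjusted p = 0.00307). EPHB4 was above background in 1 OVCAR3 array and in no RMG1 array, and was called higher in OVCAR3 (adjusted p = 0.000178 from limma). EPHB1, EPHB3, EPHB6 and EFNB3 were below background in every array, and EPHB2 was not among the genes matched.

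SLIT2 was the 1 Slit ligand above background, and its values overlapped between the lines. It read 9.41, 9.66 and 8.95 in RMG1 and 9.57, 9.37 and 9.48 in OVCAR3, with a difference of -0.13 and an interval from -0.60 to 0.34 (adjusted p = 0.672 from limma). ROBO1, its receptor, was above background in every array but higher in OVCAR3, with 11.56, 12.21 and 11.90 against 9.51, 9.49 and 9.53 (5.21-fold, standard error 0.20 on the log2 scale, adjusted p = 1.84e-05). SLIT1, SLIT3, ROBO2, ROBO3 and ROBO4 were below background in every array.

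**Figure D2:**
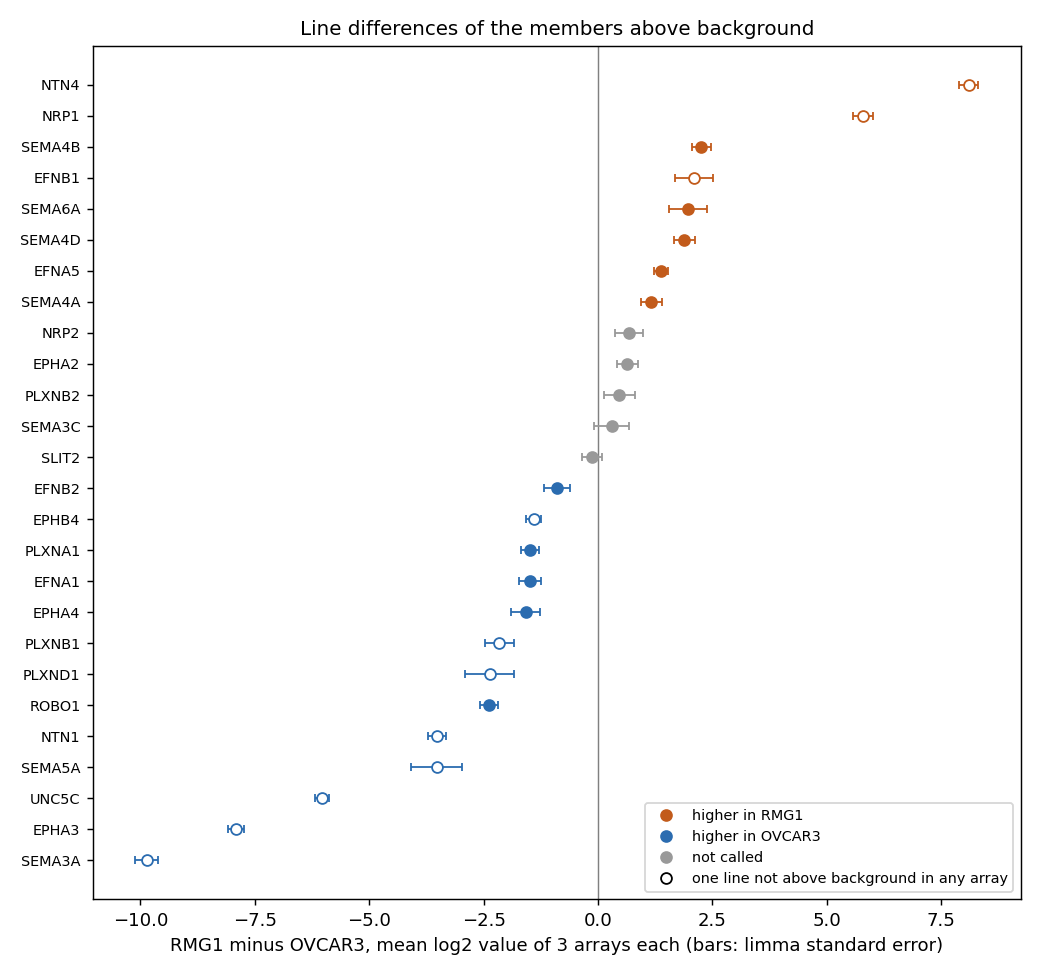
Difference between the lines, RMG1 minus OVCAR3, as the mean log2 value of 3 arrays each (x axis) for the 26 guidance genes above background in at least 1 array, with limma standard errors as bars; orange and blue points were called higher in RMG1 and OVCAR3, grey points were not called, and open points are genes that 1 line did not express above background, whose size is uncertain. SEMA3A, EPHA3 and UNC5C lie at the OVCAR3 end and NTN4 and NRP1 at the RMG1 end.

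Promoter sequence is shown for NTN4, EPHA3 and UNC5C, as genes with on-off levels between the lines, and further on for the genes that were lower with both siCPNE8 siRNAs. RefSeq (GRCh38.p14) entries were matched for 56 of the 66 genes by symbol, and SEMA3A, NRP1 and NTN1 had no entry in the table used. The windows are the 250 bases before the annotated start, 5′ to 3′ on the strand of the gene, at chr12:95790765-95791014 (minus strand, the start of 2 listed that lies further into the gene), chr3:89107371-89107620 (plus strand) and chr4:95548974-95549223 (minus strand). Capitals mark CG dinucleotides, the sites of DNA methylation in mammals.
NTN4: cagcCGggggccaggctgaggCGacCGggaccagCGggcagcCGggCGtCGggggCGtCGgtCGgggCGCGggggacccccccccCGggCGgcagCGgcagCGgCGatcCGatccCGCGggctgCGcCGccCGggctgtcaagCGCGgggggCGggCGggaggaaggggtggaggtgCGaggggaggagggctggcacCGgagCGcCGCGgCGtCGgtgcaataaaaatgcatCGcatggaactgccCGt
EPHA3: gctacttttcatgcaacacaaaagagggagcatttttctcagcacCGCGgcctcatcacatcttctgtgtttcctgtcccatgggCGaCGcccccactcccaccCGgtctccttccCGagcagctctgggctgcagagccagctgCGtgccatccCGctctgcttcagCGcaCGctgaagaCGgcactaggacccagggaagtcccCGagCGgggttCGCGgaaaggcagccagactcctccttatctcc
UNC5C: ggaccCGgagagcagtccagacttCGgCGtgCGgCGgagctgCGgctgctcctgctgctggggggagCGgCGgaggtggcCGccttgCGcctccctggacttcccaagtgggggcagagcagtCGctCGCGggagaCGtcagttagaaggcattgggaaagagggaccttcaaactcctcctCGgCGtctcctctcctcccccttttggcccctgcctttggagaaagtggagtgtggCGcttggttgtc
The NTN4 window held 36 CG dinucleotides, the EPHA3 window 15 and the UNC5C window 17, compared with a median of 11 (quartiles 3 and 23) over 35116 promoter windows of the same length. The other listed start of NTN4 had 20. The arrays carry no information on methylation.

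The remaining genes of the guidance pathways were described with 6 lists of co-receptors, other cues and effectors, of which 138 of 150 genes were measured. Of these 74 were called between the lines, 46 (33.3%) higher in OVCAR3 and 28 (20.3%) higher in RMG1, with 19.2% and 17.8% over all probes. Above background in at least 1 array were 89 of the 138 genes (64.5%), compared with 46.7% of all transcript probes. Of these 89 genes, 37 were called higher in OVCAR3 and 24 in RMG1. Over all transcript probes above background in at least 1 array, the shares called were 30.2% and 28.7%. Among co-receptors, FLRT3, an adhesion protein that binds UNC5 receptors, read 12.26, 14.24 and 13.41 in RMG1 and 6.92, 7.52 and 7.08 in OVCAR3 (at least 34.2-fold, adjusted p = 6.84e-06 from limma). MET, the HGF receptor that couples to class B plexins, was 24.6-fold higher in RMG1 (adjusted p = 1.9e-06). In OVCAR3, NCAM1, a neural adhesion molecule, read 14.11, 14.68 and 14.56 against 7.03, 6.48 and 6.73, at least 92.8-fold higher (adjusted p = 5.02e-08), and BOC, a hedgehog co-receptor, was at least 8.82-fold higher (adjusted p = 7.1e-06). PLXDC2, a transmembrane protein related to plexins in part of its sequence, was at least 21.1-fold higher in OVCAR3 (adjusted p = 5.61e-08). Of the other cues, BMP7 was at least 17.9-fold higher in OVCAR3 (adjusted p = 1.75e-08) and the netrin-like NTNG1 at least 1.83-fold higher in RMG1 (adjusted p = 2.35e-06). DAPK1, a kinase that acts downstream of UNC5 receptors in cell death, was 11.8-fold higher in RMG1 (adjusted p = 3.92e-05). By list, the effectors of netrin, Slit and Robo signaling had 11 of 24 genes higher in OVCAR3 and 4 in RMG1, those of ephrins and Eph receptors 10 of 25 and 5, and those of semaphorins and plexins 6 of 20 and 5. NEO1, the netrin receptor related to DCC, was above background in all arrays and higher in OVCAR3, with 12.92, 13.07 and 12.89 against 10.5, 10.44 and 10.56 (adjusted p = 3.74e-06); it was chosen after its values were seen.

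Knockdown of CPNE8 in RMG1 was compared with the siControl array of that line. A gene was counted when its ratio was over 1.5 or under 0.66 with both siRNAs, which share the 1 control array. Under 0.66-fold with both were EFNB1, EFNB2 and SEMA3C, that is 3 of the 66 genes, where the share over all transcript probes was 2.69%. EFNB1 had a log2 ratio of -0.89 with #B, leaving 0.54 of the siControl signal, and with #A it was below background, so the size of that ratio is not given. SEMA3C had -1.54 and -1.06, leaving 0.344 and 0.48. EFNB2 had -1.17 and -0.75, leaving 0.445 and 0.596. EFNA1 lay just outside the threshold with log2 ratios of -0.57 and -0.96.

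Over 1.5-fold with both siCPNE8 siRNAs were SEMA6A, PLXND1 and EPHA6, or 3 of 66 genes, where the share over all probes was 2.56%. The log2 ratios of SEMA6A were 1.64 (#A) and 0.61 (#B), the latter 1.52-fold and just past the threshold. PLXND1, an endothelial plexin, and EPHA6 were below background in all RMG1 arrays, so their ratios are not given. In limma's fit of 4 groups over the 6 arrays no probe was called for siCPNE8 at an adjusted p under 0.05, and 1181 probes (5.51%) had an unadjusted p under 0.05. Of the guidance genes 6, the 3 lower ligands with EFNA1, PLXND1 and EPHA6, were among those 1181, and the lowest adjusted p of the 66 was 0.879. With limma standard errors of 0.40 for SEMA3C and 0.30 for EFNB2, the mean log2 ratios were -1.30 ± 0.34 and -0.96 ± 0.30 (SD, n = 2 siRNAs). NTN4, EFNA5 and ROBO1 were close to siControl with both siRNAs, with log2 ratios between -0.12 and 0.04.

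The 250 bases before the start of these 3 ligands are shown because these genes were past the lower threshold with both siRNAs. They lie at chrX:68828771-68829020 (plus strand), chr13:106535663-106535912 (minus strand) and, for the 2 starts of SEMA3C that RefSeq lists, chr7:80922390-80922639 and chr7:80919052-80919301 (minus strand), with CG dinucleotides again in capitals.
EFNB1: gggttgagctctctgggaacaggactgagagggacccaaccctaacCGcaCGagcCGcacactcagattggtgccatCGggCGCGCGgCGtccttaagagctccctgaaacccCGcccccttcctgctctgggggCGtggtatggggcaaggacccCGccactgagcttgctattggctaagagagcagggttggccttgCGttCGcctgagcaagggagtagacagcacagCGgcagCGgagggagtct
EFNB2: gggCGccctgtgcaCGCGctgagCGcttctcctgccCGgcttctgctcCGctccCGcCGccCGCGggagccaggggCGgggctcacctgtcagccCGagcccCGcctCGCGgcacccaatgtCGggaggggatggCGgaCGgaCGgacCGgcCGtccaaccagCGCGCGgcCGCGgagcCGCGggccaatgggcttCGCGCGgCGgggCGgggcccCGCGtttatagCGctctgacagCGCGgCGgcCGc
SEMA3C, outer start: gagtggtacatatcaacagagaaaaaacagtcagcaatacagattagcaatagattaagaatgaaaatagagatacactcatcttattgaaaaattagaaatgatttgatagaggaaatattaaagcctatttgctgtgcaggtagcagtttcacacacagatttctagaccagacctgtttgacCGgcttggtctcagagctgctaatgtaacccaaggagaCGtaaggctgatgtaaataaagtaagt
SEMA3C, inner start: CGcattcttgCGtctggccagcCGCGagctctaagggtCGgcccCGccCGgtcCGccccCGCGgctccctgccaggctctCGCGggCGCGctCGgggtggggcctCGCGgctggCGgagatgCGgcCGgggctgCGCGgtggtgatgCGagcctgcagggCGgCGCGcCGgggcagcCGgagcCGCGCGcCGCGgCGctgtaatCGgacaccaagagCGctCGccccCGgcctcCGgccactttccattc
The EFNB1 window held 15 CG dinucleotides, that of EFNB2 40, and those of SEMA3C 2 and 39. The GC box GGGCGG, searched on both strands, was present once in the EFNB1 window and 3 times each in those of EFNB2 and of the inner SEMA3C start, and 42.6% of all windows held it. The AP-1 motif TGANTCA, the E-box CACGTG and the NF-κB motif, also searched on both strands, were found in none of the 4 windows, compared with 6.57%, 6.34% and 9.96% of all windows.

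Knockdown of BHLHE41 in OVCAR3 gave 3 of 66 genes over 1.5-fold of siControl with both siRNAs, PLXNB1, SEMA4G and NTN4, where the share over all probes was 3.09%, and 0 under 0.66-fold, where it was 2.13%. PLXNB1, the receptor of SEMA4D, had a value of 7.17 in the control array, 8.06 (#A) and 8.57 (#B), and log2 ratios of 0.89 and 1.40. It was above background with #B alone, so the size of its ratio is uncertain. SEMA4G and NTN4 were below background in all OVCAR3 arrays. In limma's 4-group fit no probe was called for siBHLHE41 and 1099 (5.12%) had an unadjusted p under 0.05, 4 guidance genes among them, and the lowest adjusted p of the 66 was 0.858 (PLXNB1 and SEMA4G). Of the genes above background in all 3 OVCAR3 arrays and no RMG1 array, SEMA3A had log2 ratios of 0.22 and -0.38, EPHA3 0.25 and 0.30, UNC5C 0.16 and 0.32 and NTN1 -0.54 and -0.26.

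**Figure D3:**
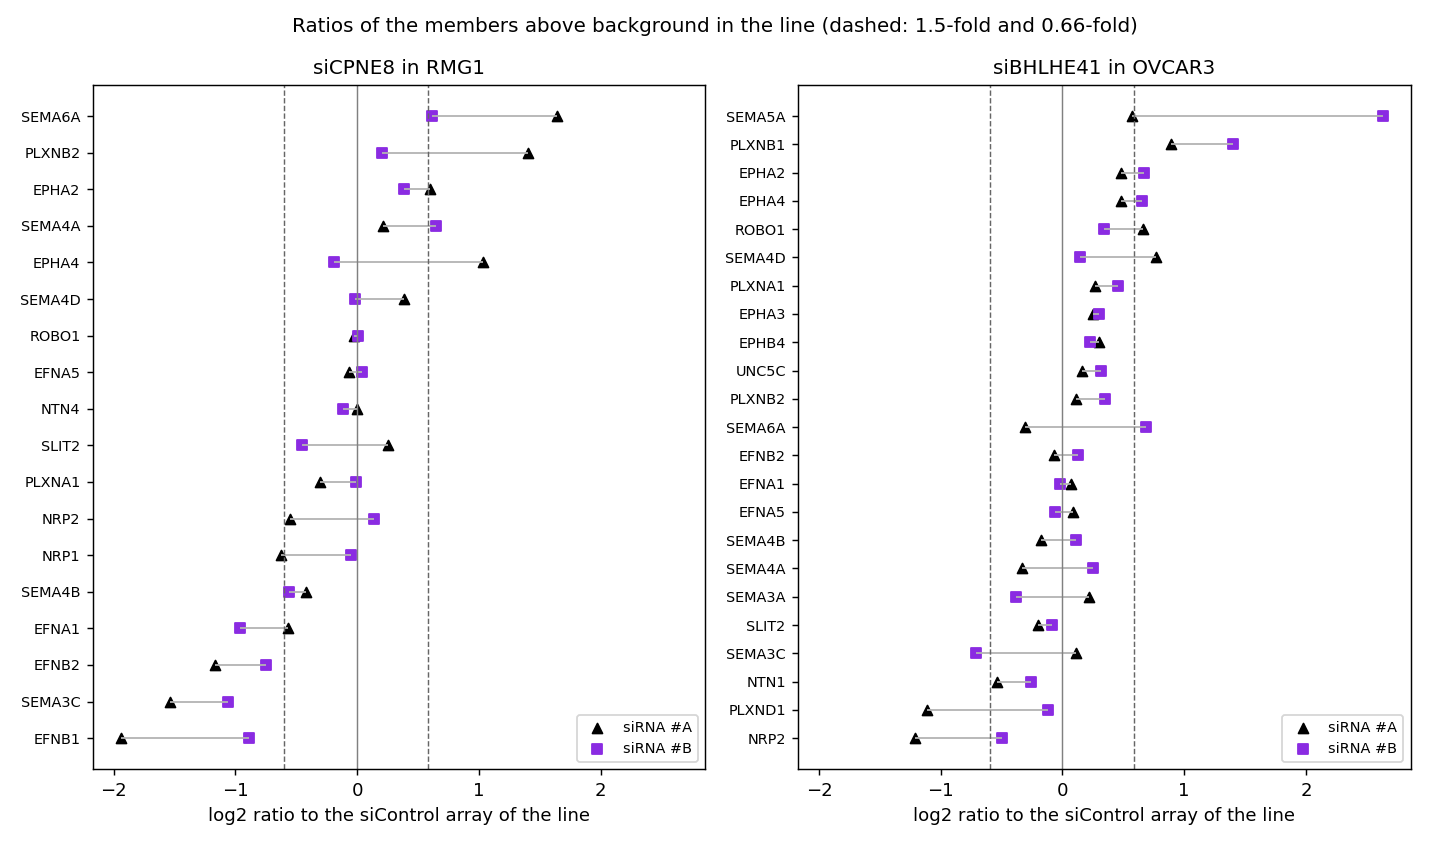
Log2 ratios to the siControl array of the line (x axis) for the guidance genes above background in at least 1 array of that line (a point from an array below background, such as EFNB1 with #A, has an uncertain size), 18 in RMG1 with siCPNE8 (left) and 23 in OVCAR3 with siBHLHE41 (right), with triangles for siRNA #A, squares for #B and dashed lines at 1.5-fold and 0.66-fold. EFNB1, SEMA3C and EFNB2 lie left of the lower line with both siCPNE8 siRNAs, and SEMA6A and PLXNB1 right of the upper line with both siRNAs of their line.

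For some genes the siRNAs of a pair gave different values. SEMA5A, a semaphorin with thrombospondin repeats, had 6.60 in the OVCAR3 control array, 7.17 (#A) and 9.23 (#B). The siCPNE8 log2 ratios of PLXNB2 were 1.40 (#A) and 0.20 (#B), and EPHA4 was above background in RMG1 with #A alone. In OVCAR3 those of SEMA6A were -0.31 and 0.69. The median SD of the 66 genes over the 3 arrays of a line was 0.293 in RMG1 and 0.262 in OVCAR3, and that of all transcript probes 0.225 and 0.215.

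Of the other guidance genes, both siCPNE8 siRNAs put 4 of 138 over 1.5-fold and 5 under 0.66-fold of siControl, where the shares over all probes were 2.56% and 2.69%. Both siBHLHE41 siRNAs put 13 over 1.5-fold, 8 of them above background in OVCAR3, and 0 under 0.66-fold, where the shares were 3.09% and 2.13%. L1CAM, a neural adhesion molecule that associates with NRP1, was over 1.5-fold with every siRNA of either line, at 1.64 and 0.70 in RMG1 and 1.84 and 1.69 in OVCAR3 (log2 ratios with #A and #B). FLRT3 had 1.98 and 1.15 with siCPNE8, and VAV3, an exchange factor activated by Eph receptors, had 1.57 and 0.61 but was above background in RMG1 with #A alone. DPYSL2, the CRMP protein that acts downstream of SEMA3A, had -0.91 and -0.90, MICAL2, an actin-oxidizing enzyme of a family that acts below plexins, -0.86 and -0.77, and VEGFA, a ligand of NRP1, -0.67 and -0.73. With siBHLHE41 LIMK1, a kinase that inactivates cofilin, had 0.63 and 0.70, its relative LIMK2 1.04 and 0.61, MAGED1, which binds UNC5A in rodents, 0.96 and 1.13, and BOC 0.69 and 1.45. PDLIM1 had 1.05 and 0.61 and GSK3B 0.63 and 0.62, and RTN4R was above background in 1 OVCAR3 array with 0.81 and 0.90.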

How the data were processed

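RMG1 and OVCAR3 cells were each transfected with a control siRNA or 1 of a pair of siRNAs, and total RNA was extracted with ISOGEN and hybridized to Affymetrix Clariom S arrays, 1 per transfection. The authors deposited log2 expression values, made by RMA with Affymetrix Expression Console according to the submitters' processing notes, which name no version. The 21448 transcript probes were kept and 2903 control probes left out of the tests. Symbols came from the array annotation (17709 probes with 1 symbol, 0 with several, 3739 unnamed), and 0 changed when brought up to date through gene identifiers (GRCh38.p14).

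Lines were compared with limma (version 3.58.1, R 4.3.3; lmFit and eBayes) in a fit of 2 groups of 3 arrays with 4 residual degrees of freedom, and knockdowns with the fold criterion and a limma fit of 4 groups, with 2 residual degrees of freedom, all adjusted by Benjamini-Hochberg over the transcript probes. The knockdown fit assumes that a control array varies like a pair of siRNAs. Over all probes, control probes included, r was 0.99 to 0.993 for arrays of the same line and 0.938 to 0.943 for arrays of different lines. The fits were tested on simulated data. Sequences were read from RefSeq promoter tables. Genes named with full statistics were, per direction, up to 8 called genes with the largest line difference that were above background in all 3 arrays of the brighter line, and those past the fold with both siRNAs and above background in the line; of the other lists, up to 4 per direction and those past the fold. Remaining genes are given by level. The genes and lists were chosen with earlier results of these data known. The number of arrays limits the precision.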

Additional observations from a re-analysis of the deposited data

How the results depend on the processing

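The count of guidance genes called higher in RMG1 was 11 and stayed between 8 and 13 under the 4-group fit, quantile normalization, median centring, a variance trend, control probes kept, dim probes left out and a minimum difference of 1, and between 10 and 13 when 1 array was left out. The count higher in OVCAR3 was 24 and stayed between 20 and 24 under these settings except with dim probes left out, where it was 9 because 11 of the 24 were below background in every array and 4 more were above it in some OVCAR3 arrays only. Over the 21 called genes above background, 205 of 210 recomputed line differences kept direction and call, and the other 5 were those of EFNB2.

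The knockdown counts rest on few genes. With thresholds of 2-fold and 0.5-fold, 1 gene was above (PLXND1) and 1 below siControl (SEMA3C) with siCPNE8, and 1 above with siBHLHE41 (SEMA4G). PLXND1 and SEMA4G were below background in all arrays of these lines. At 1.5-fold, among genes above background in at least 1 array of the line, 1 was above with siCPNE8 (SEMA6A) and 1 with siBHLHE41 (PLXNB1). Neither SEMA6A nor PLXNB1 passed 2-fold with both siRNAs. By limma's adjusted p every count was 0. Median centring gave 2 above with siBHLHE41. With 1 siRNA alone, siCPNE8 gave 6 to 8 genes above and 6 to 10 below siControl, and siBHLHE41 gave 6 to 15 above and 2 to 6 below. The shares over all probes given above are for both siRNAs together. Whether the counts with 1 siRNA alone differ from those of all probes was not tested. No paired analysis was possible because the letters A and B name different siRNAs in the lines and each control is 1 array.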
